A study of Homo sapiens with 10 samples.

Results

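Fatty acid oxidation and the carnitine system that feeds it were described in irradiated and control renal proximal tubular epithelial cells (RPTECs) through 36 named genes, found by symbol among the 61587 rows of the count table. The rule that selects them uses gene names alone, although the list was drawn up with earlier results of these data known. All 36 were found, and all 36 reached the minimum of 200 counts summed over the samples that a gene needed to be tested. They comprise 7 carnitine genes, 4 acyl-CoA synthetases, 14 genes of mitochondrial oxidation, 8 of peroxisomal oxidation and 3 transcriptional regulators.

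The cells were RPTEC/TERT1, a human proximal tubular line immortalised with telomerase, so that every sample comes from the same line. A group of 5 irradiated cultures received 10 Gy from a caesium gamma source and a group of 5 control cultures was mock-irradiated, and poly-A RNA of both was sequenced on day 7. Both groups have replicates numbered 1 to 5, and samples of the same number were analysed as a pair. The labels do not say whether the numbers are separate cultures in time, so p-values measure the spread between these samples. In bulk RNA, fewer cells of a kind and less RNA per cell cannot be told apart.

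Depth was 66269311 to 131555873 counts per sample, and levels are given as CPM, counts scaled to the TMM-normalised size of their sample. Among markers of the proximal tubule, PAX8 (468 to 627 CPM in controls) was abundant, while HNF4A had 12 counts and LRP2 17 counts over all samples, so that several defining markers of the segment were near 0. SLC12A1, a marker of the thick ascending limb, was at 149, 399.6, 99.9, 109 and 134 CPM in control replicates 1 to 5 and at 46.4, 171, 17.3, 31.9 and 38.1 CPM in irradiated replicates, and fell (log2 change -1.80, SE 0.16, adjusted p = 0.000121, edgeR). SE here and later is the standard error of the fitted log2 change. Markers of fibroblasts, endothelium and leucocytes were low, with higher sums in irradiated samples, at summed levels over each list of 15.8 to 23.4, 1.29 to 2.40 and 0.487 to 0.734 CPM in control samples and 28.4 to 39.95, 4.15 to 6.07 and 0.784 to 1.24 CPM in irradiated samples. Of these 14 markers, COL1A1 (log2 change 0.78), DCN (2.36), CDH5 (2.48), PECAM1 (0.72) and CD14 (1.09) were called higher, each in 5 of 5 pairs. COL1A1 made up most of the fibroblast sum, at 18.8 ± 3.34 CPM in controls and 32.1 ± 4.67 CPM in irradiated samples (SD, n = 5 each), and the other called markers had means of at most 3.31 CPM in either group. VWF and PTPRC were not called, and COL1A2, PDGFRB, LUM, KDR, CD68, CD3E and MS4A1 had too few counts to be tested. Which cells this marker RNA comes from was not tested, nor was its part in the results.

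Control samples also differed among themselves. The summed level of 20 cell cycle genes was 507 and 477 CPM in control replicates 1 and 3, against 1202, 1230.0 and 1170.5 in replicates 2, 4 and 5, and it was 319 to 403 CPM in irradiated samples. Control replicate 3 held the highest control value for 23 of the 36 genes. Results that moved most without its pair are given with and without it, and the part of cell division in them was not tested.

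To be burned for energy, a long-chain fatty acid is first joined to coenzyme A, then handed to carnitine so that it can cross the inner mitochondrial membrane, and finally shortened in a repeated spiral of dehydrogenation, hydration, a second dehydrogenation and thiolysis. Electrons leave the first step through the electron transfer flavoprotein. Peroxisomes run a parallel spiral on very long and branched chains, which releases hydrogen peroxide, and pass shortened acyl groups on as carnitine esters. Proximal tubular cells draw most of their energy from this pathway and, with the liver, are a main site of carnitine synthesis. The nuclear receptors PPARα and PPARδ and the coactivator PGC-1α switch on many of its genes.

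The promoters of 4 genes are shown, because these mark the range of what was measured: BBOX1 fell the most, CROT rose the most, CAT fell the most in the peroxisomal group, and HADHB stands for the trifunctional protein, for which no change was called with TMM scaling. Each line gives the 250 bases before the RefSeq start, on the + strand of GRCh38.p14. Matches on either strand to GGGCGG (the GC box), CCAAT (the CCAAT box) and TGANTCA are in capitals. TGANTCA is looser than the AP-1 motif, since N allows any base at its centre.
BBOX1 (chr11:27040565-27040814): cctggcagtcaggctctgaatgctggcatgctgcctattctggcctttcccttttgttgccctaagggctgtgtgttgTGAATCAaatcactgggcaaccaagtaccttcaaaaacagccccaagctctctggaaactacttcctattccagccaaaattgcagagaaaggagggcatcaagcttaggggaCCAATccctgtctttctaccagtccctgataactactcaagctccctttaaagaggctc
CROT (chr7:87345414-87345663): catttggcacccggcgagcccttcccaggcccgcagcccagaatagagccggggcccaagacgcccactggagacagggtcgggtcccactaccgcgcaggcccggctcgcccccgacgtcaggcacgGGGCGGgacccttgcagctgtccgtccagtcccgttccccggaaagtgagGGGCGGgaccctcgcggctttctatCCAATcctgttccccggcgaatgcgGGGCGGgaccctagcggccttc
CAT (chr11:34438684-34438933): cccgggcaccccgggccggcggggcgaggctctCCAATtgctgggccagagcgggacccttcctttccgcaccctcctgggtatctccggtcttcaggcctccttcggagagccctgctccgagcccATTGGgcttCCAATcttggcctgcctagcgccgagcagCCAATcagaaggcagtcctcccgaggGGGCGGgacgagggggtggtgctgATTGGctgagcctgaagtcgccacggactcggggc
HADHB (chr2:26244689-26244938): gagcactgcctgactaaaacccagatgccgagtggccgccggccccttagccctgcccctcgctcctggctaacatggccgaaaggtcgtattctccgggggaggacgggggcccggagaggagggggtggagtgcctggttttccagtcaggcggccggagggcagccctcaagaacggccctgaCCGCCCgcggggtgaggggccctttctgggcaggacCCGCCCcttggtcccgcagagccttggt
The CROT window holds 3 GC boxes and 1 CCAAT box, the CAT window 1 GC box and 5 CCAAT boxes and the HADHB window 2 GC boxes. The BBOX1 window has no GC box and 1 match each to CCAAT and TGANTCA, the latter reading TGAATCA. HADHA and HADHB, which encode the α and β subunits of the trifunctional protein, are transcribed in opposite directions from starts 307 bases apart, so the HADHB window is also upstream sequence of HADHA. RefSeq windows were held for 30 of the 36 genes, and those of 27 begin at the MANE Select start. The GC box was found in 25 of these 27 windows (92.6%), and in 42.6% of all 35114 windows of this length. BBOX1 and ACAA2 are the exceptions. AGGTCA, the half-site of nuclear receptors such as the PPARs, was found in 0 of the 27 windows and in 12.1% of all windows. CCAAT was found in 10 of 27 (37.0%, against 32.01% of all), TGANTCA in those of BBOX1 and ACADVL (7.41%, against 6.57%) and the E-box CACGTG in that of PECR (3.70%, against 6.35%). A match describes the letters of these windows and not the binding of a factor. The 27 windows are a single one for each of 27 genes expressed here. All windows include several starts of some genes and were not selected by expression, so the shares compare unlike sets. No windows were held for ACAA1, CRAT, DECR1, DECR2, EHHADH and ETFDH.

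Genes of fatty acid oxidation were mostly lower after irradiation, and the fall was steepest at the last step of carnitine synthesis and in the coactivator PGC-1α. Of the 36 genes, 21 were lower and 2 higher at an adjusted p-value under 0.05 (edgeR's quasi-likelihood test with replicate number as a block and Benjamini-Hochberg adjustment over 19006 genes), and 13 were not called. Among all genes tested, 46.6% were called, 22.7% lower and 23.9% higher. The median log2 fold change (irradiated over control) was -0.24 for the 36 genes and -0.01 for all genes. BBOX1 and PPARGC1A changed more than 2-fold, and the other called genes by 1.10-fold (ALDH9A1) to 1.91-fold (CROT). In 17 of the 36 genes all 5 irradiated samples lay below all 5 controls, and in 2 they lay above, where 12.0% and 14.6% of all genes did so. With library size as the only scaling, 26 genes were lower and 1 higher, and the split over all genes shifted with it, from 51.4% of calls higher to 38.0%.

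**Figure D1:**
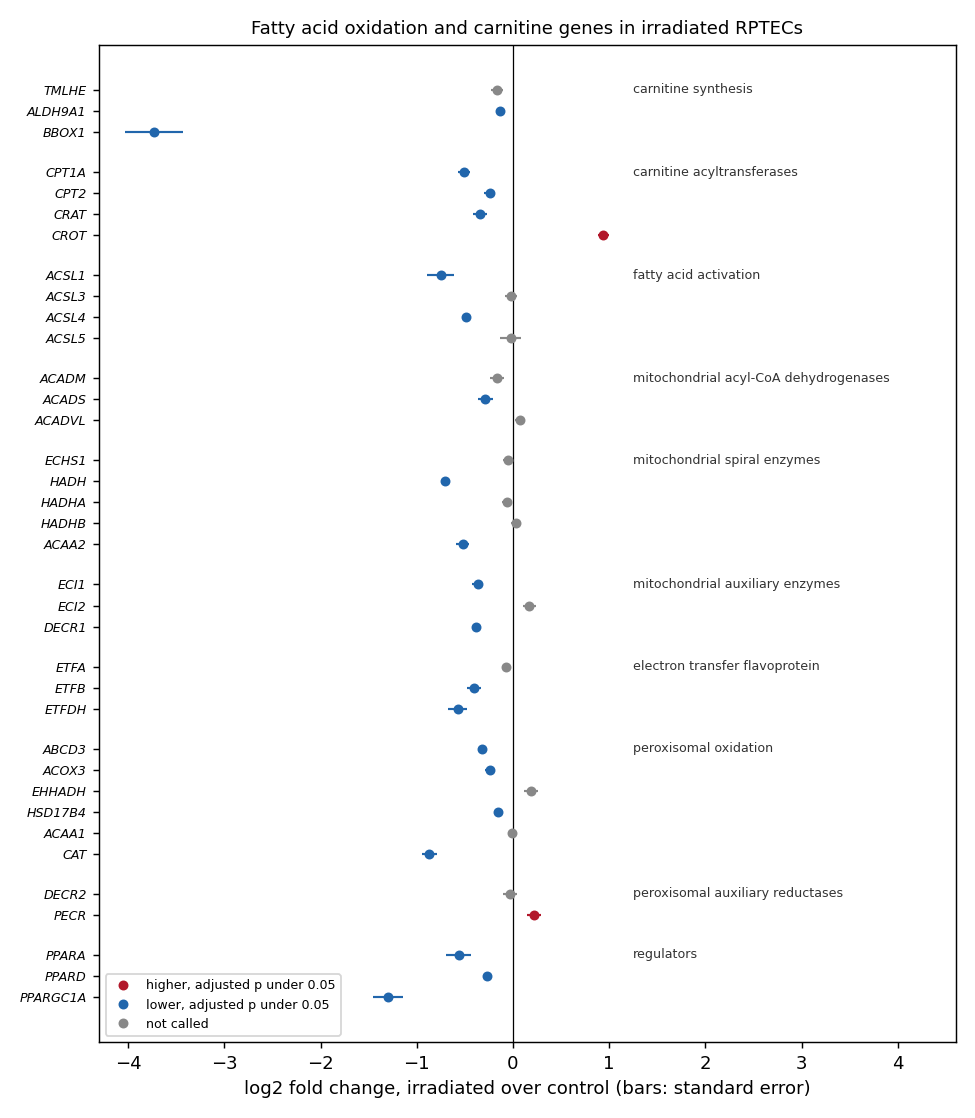
The log2 fold change of each of the 36 genes (x axis, irradiated over control, fitted by edgeR on 5 replicate pairs) is plotted by role (y axis), with bars for the standard error, blue for genes called lower, red for genes called higher and grey for genes not called. BBOX1 stands far to the left at -3.73, PPARGC1A follows at -1.30, and CROT, at 0.94, has the largest positive value.

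Calls in the lower direction outnumbered those in the higher direction in each compartment. Lower levels were called for 5 of 7 carnitine genes (median log2 fold change -0.24), 2 of 4 acyl-CoA synthetases (-0.26), 7 of 14 mitochondrial genes (-0.22), 4 of 8 peroxisomal genes (-0.09) and all 3 regulators (-0.57). Of the calls in the higher direction, CROT belongs to the carnitine genes and PECR to the peroxisomal genes. For comparison, 7 of 16 citric acid cycle genes were lower and 1 was higher, with a median of -0.12. These are counts over small lists that were named with results known, and a difference between whole compartments was not tested.

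Carnitine is made from trimethyllysine, which TMLHE hydroxylates, ALDH9A1 oxidises to γ-butyrobetaine after a cleavage, and BBOX1 hydroxylates once more to give carnitine. The last of these enzymes had by far the largest change. BBOX1, which GENCODE places on chromosome 11 from 27040725 to 27127809 of GRCh38 over all its transcripts, was at 102, 41.8, 29.1, 31.4 and 48.7 CPM in control replicates 1 to 5 and at 6.77, 8.50, 1.36, 1.70 and 3.12 CPM in the irradiated replicates of the same numbers. The groups did not overlap, and the lowest control exceeded the highest irradiated sample 3-fold or more. The fitted level was 13.3-fold lower (log2 change -3.73, SE 0.30, adjusted p = 7.98e-05, edgeR), and only 9 genes of the 19006 tested had a lower log2 fold change. Control replicate 1 was the highest at 102 CPM, and without its pair the fitted change of BBOX1 was -3.68. ALDH9A1 was at 63.7, 71.9, 74.8, 66.6 and 75.9 CPM in control and 59.8, 67.7, 65.4, 62.8 and 64.4 CPM in irradiated samples, lower within each of the 5 pairs though the groups overlapped. Its small fall (log2 change -0.14, SE 0.04, adjusted p = 0.0283, edgeR) was no longer called without replicate 1, 4 or 5 (adjusted p = 0.0502, 0.0658 and 0.129 in edgeR) or without the replicate block (0.0913). TMLHE, the least abundant of the 36 per kilobase, was also lower in 5 of 5 pairs, at 7.22 to 8.69 CPM in control and 6.62 to 7.42 CPM in irradiated samples, and did not pass (log2 change -0.17, SE 0.07, adjusted p = 0.0702, edgeR). It was called lower with upper-quartile scaling (0.039) and with library size alone (0.0185).

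The carnitine acyltransferases parted, with 3 lower and 1 higher. CPT1A, the enzyme of the outer mitochondrial membrane that sets the rate of entry and is inhibited by malonyl-CoA, was at 99.8, 111, 141, 107 and 115 CPM in controls and 84.02, 80.9, 92.3, 72.5 and 73.4 CPM in irradiated samples. Its level was 1.42-fold lower without overlap between the groups (log2 change -0.51, SE 0.06, adjusted p = 0.000535, edgeR). CPT2, which frees the acyl group on the matrix side, was lower by less, at 13.2 to 14.8 CPM in control and 10.9 to 12.97 CPM in irradiated samples (log2 change -0.24, SE 0.06, adjusted p = 0.00929, edgeR). Exons of other genes cover 37.7% of its MANE transcript, so reads may be missing from its counts. CRAT, which exchanges acetyl groups between coenzyme A and carnitine, was at 60.7, 45.5, 75.6, 49.7 and 52.02 CPM in controls and 48.3, 42.97, 50.01, 40.9 and 39.1 CPM in irradiated samples (log2 change -0.34, SE 0.07, adjusted p = 0.00576, edgeR). It was lower in 5 of 5 pairs, with groups that overlapped, and without replicate 3 the log2 change of CRAT was -0.27 (adjusted p = 0.00705).

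CROT, which loads medium-chain acyl groups onto carnitine so that they can leave the peroxisome, moved the other way. It was at 15.7, 16.3, 13.99, 15.01 and 15.6 CPM in control replicates 1 to 5 and at 27.1, 30.2, 29.5, 30.8 and 29.1 CPM in irradiated replicates. Each irradiated sample lay above every control, and both groups were tight. The mean rose from 15.3 ± 0.886 to 29.3 ± 1.40 CPM (SD, n = 5 each), and the change of 0.94 on the log2 scale (SE 0.06, adjusted p = 3.26e-05 in edgeR) ran from 0.86 to 0.97 over the 14 alternatives.

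**Figure D2:**
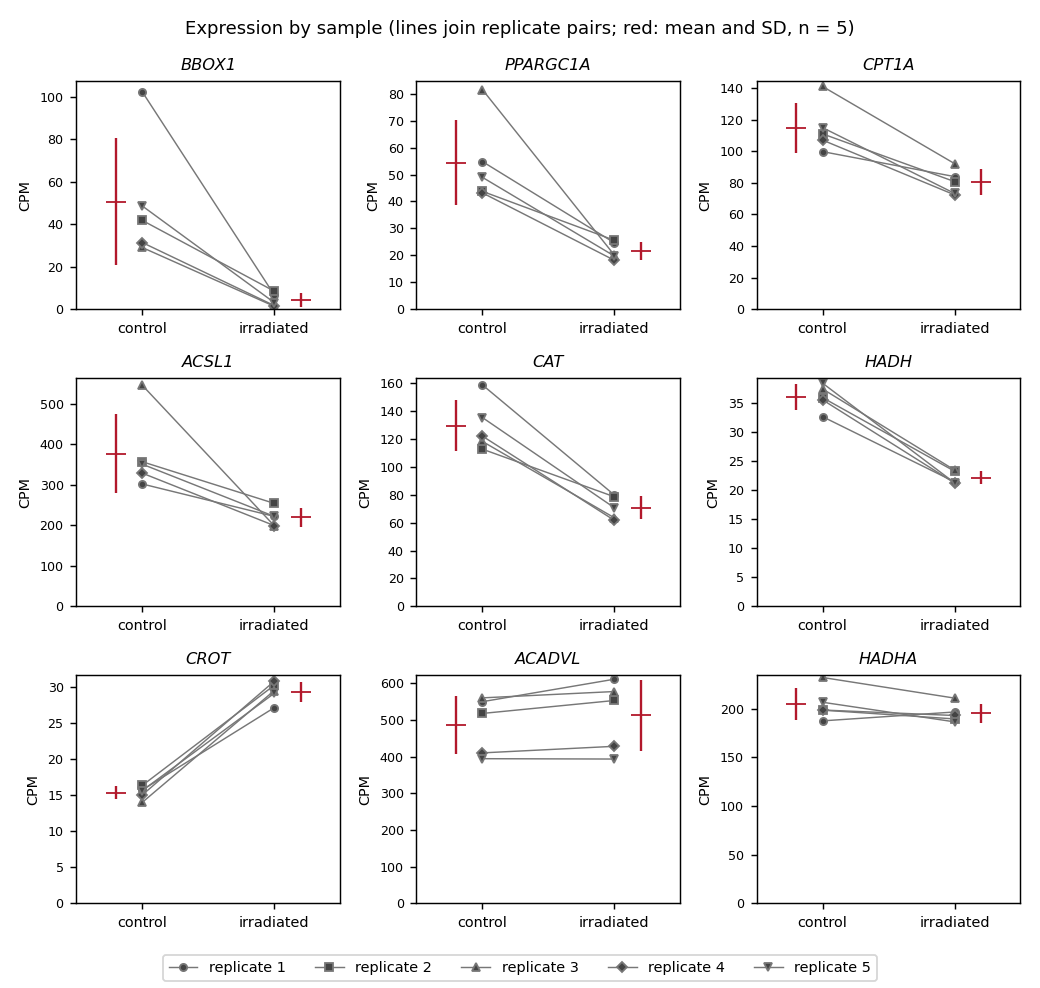
Expression of 9 genes is plotted as TMM-normalised CPM (y axes, from 0) in control and irradiated samples (x axes), with lines joining samples of the same replicate number and red marks for the mean and SD of 5 samples. BBOX1, PPARGC1A, CPT1A, ACSL1, CAT and HADH fall in every pair and CROT rises in every pair, while ACADVL and HADHA stay near their control levels.

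Long-chain acyl-CoA synthetases activate fatty acids, and they split evenly. ACSL1, an isoform of oxidative tissues and a target of PPARα, was the most abundant, at 302, 356, 545, 328 and 350.4 CPM in controls and 222, 254, 199, 199 and 222 CPM in irradiated samples. It was lower without overlap (log2 change -0.75, SE 0.14, adjusted p = 0.00346, edgeR). Control replicate 3 stood far above the other controls, and without its pair the fit gave -0.57 (adjusted p = 0.00031). ACSL4, which prefers arachidonic acid and shapes membrane lipids, fell in all pairs, from 259.9 ± 22.3 to 185 ± 20.03 CPM (SD, n = 5 each; log2 change -0.49, SE 0.04, adjusted p = 9.73e-05, edgeR). ACSL3, which acts at the endoplasmic reticulum and on lipid droplets, was at 108 to 150.3 CPM in control and 118 to 142 CPM in irradiated samples (adjusted p = 0.856 in edgeR). ACSL5, found on mitochondria and the endoplasmic reticulum, was at 7.01 to 10.2 CPM in control and 6.72 to 9.64 CPM in irradiated samples (adjusted p = 0.873 in edgeR). Neither was called.

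In the mitochondrial spiral the enzymes for long chains had values near those of the controls, and several enzymes for shorter chains were lower, a contrast between genes that was itself not tested. ACADVL, the very-long-chain dehydrogenase, was at 550.1, 518, 561, 410.4 and 395 CPM in controls and 611, 553, 578, 428 and 394 CPM in irradiated samples. The samples of a pair lay close together while pairs differed from each other, and no change was called (log2 change 0.07, SE 0.05, adjusted p = 0.242, edgeR). HADHA, whose product hydrates and dehydrogenates long chains, was at 187, 198, 232, 199 and 207 CPM in controls and 197, 189, 211, 193 and 186 CPM in irradiated samples (adjusted p = 0.283 in edgeR). HADHB, the thiolase subunit of the same complex, was at 98.5 to 131 CPM in control and 108 to 114 CPM in irradiated samples (adjusted p = 0.69 in edgeR). The levels of these 3 genes differed by less than the spread between replicates, except that HADHA was called lower with library size as the only scaling (log2 change -0.14, adjusted p = 0.0257).

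HADH, the dehydrogenase for short and medium chains, showed the largest fall of the mitochondrial genes. It was at 32.7, 35.96, 37.5, 35.6 and 38.5 CPM in control replicates 1 to 5 and at 21.5, 23.3, 23.5, 21.3 and 21.3 CPM in irradiated replicates, with a wide gap between the groups. The level was 1.63-fold lower (log2 change -0.70, SE 0.05, adjusted p = 5.66e-05, edgeR). ACAA2, the matrix thiolase, was at 49.1, 40.4, 51.6, 43.7 and 46.5 CPM in controls and 31.5, 34.5, 32.8, 30.8 and 30.9 CPM in irradiated samples, also without overlap (log2 change -0.52, SE 0.07, adjusted p = 0.000657, edgeR). ACADS, the short-chain dehydrogenase, was at 22.4 to 36.2 CPM in control and 21.3 to 24.9 CPM in irradiated samples, lower in 5 of 5 pairs (log2 change -0.29, SE 0.08, adjusted p = 0.0165, edgeR), but not called without replicate 1 or 5 (adjusted p = 0.0603 and 0.0563) or without the replicate block (0.0582). Without replicate 3 the log2 change of ACADS was -0.22 (adjusted p = 0.0295 in edgeR). ACADM, the medium-chain dehydrogenase, was at 31.2 to 49.3 CPM in control and 33.7 to 37.7 CPM in irradiated samples and was not called (log2 change -0.16, SE 0.07, adjusted p = 0.106, edgeR). Without replicate 3 its log2 change was -0.09 (adjusted p = 0.248 in edgeR). It passed without replicate 1 (adjusted p = 0.034), without both replicates 1 and 3 (0.0115), and with upper-quartile or library-size scaling (0.0447 and 0.0241). ECHS1, the short-chain hydratase, was at 114 to 128 CPM in control and 106 to 125 CPM in irradiated samples and was not called (adjusted p = 0.383 in edgeR), except with library size alone (0.0486) and without both replicates 1 and 3 (0.0304). Of these 5 genes for shorter chains, 3 passed.

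Auxiliary enzymes of the mitochondrial spiral handle double bonds that its main enzymes cannot. ECI1, an enoyl-CoA isomerase, fell from 71.8 ± 11.5 to 55.2 ± 4.22 CPM (SD, n = 5 each; log2 change -0.37, SE 0.06, adjusted p = 0.00213, edgeR). DECR1, the dienoyl-CoA reductase, fell from 70.02 ± 4.76 to 53.6 ± 1.31 CPM (SD, n = 5 each; log2 change -0.38, SE 0.05, adjusted p = 0.000451, edgeR). Both were lower without overlap. ECI2, an isomerase found in mitochondria and peroxisomes, was at 7.71 to 9.57 CPM in control and 8.63 to 9.66 CPM in irradiated samples and higher in 5 of 5 pairs, without being called (log2 change 0.17, SE 0.07, adjusted p = 0.0742, edgeR). Without replicate 3 it was called higher (adjusted p = 0.028). Other genes cover 24.2% of its MANE transcript.

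Electrons from the dehydrogenases pass to the heterodimer of ETFA and ETFB, and from there to ubiquinone through ETFDH. ETFA was at 86.5, 90.8, 103, 95.2 and 97.1 CPM in controls and 90.6, 84.8, 95.5, 90.3 and 87.8 CPM in irradiated samples and was not called (adjusted p = 0.206 in edgeR), except with library size alone (0.0163) and without both replicates 1 and 3 (0.0394). ETFB was lower without overlap, at 10.1, 9.35, 11.5, 9.36 and 9.74 CPM in controls and 8.53, 7.29, 8.29, 6.98 and 6.77 CPM in irradiated samples (log2 change -0.40, SE 0.07, adjusted p = 0.00234, edgeR). Exons of other genes cover 47.6% of the ETFB transcript, the most of the 36 genes, so its level can be too low. ETFDH was at 17.3, 17.5, 23.4, 16.8 and 17.8 CPM in controls and 13.4, 13.1, 11.6, 11.7 and 12.1 CPM in irradiated samples (log2 change -0.58, SE 0.10, adjusted p = 0.00217, edgeR). Control replicate 3 was the highest by a margin, and without its pair the log2 change of ETFDH was -0.46 (adjusted p = 0.000694).

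Peroxisomal genes moved in both directions, with catalase falling the most. CAT, which breaks down the hydrogen peroxide made by acyl-CoA oxidases, was at 159, 113, 118, 122 and 135 CPM in control replicates 1 to 5 and at 79.8, 78.6, 63.5, 61.7 and 70.7 CPM in irradiated replicates. All irradiated samples lay below all controls, and the level was 1.82-fold lower (log2 change -0.87, SE 0.07, adjusted p = 9.73e-05, edgeR). ABCD3, a transporter that brings acyl groups into the peroxisome, fell from 72.6 ± 3.75 to 58.04 ± 1.42 CPM (SD, n = 5 each; log2 change -0.32, SE 0.04, adjusted p = 0.00053, edgeR). ACOX3, the oxidase for branched chains, fell from 20.2 ± 0.581 to 17.1 ± 0.85 CPM (SD, n = 5 each; log2 change -0.24, SE 0.05, adjusted p = 0.00489, edgeR). HSD17B4, the D-bifunctional enzyme, was lower in 5 of 5 pairs by a small amount, at 123 to 145 CPM in control and 111 to 125 CPM in irradiated samples (log2 change -0.16, SE 0.04, adjusted p = 0.0119, edgeR). That call was lost without replicate 5 (adjusted p = 0.0592) and without the replicate block (0.0511).

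Other peroxisomal genes were level or slightly higher. EHHADH, the L-bifunctional enzyme and a familiar PPARα target in liver, was at 18.97, 17.6, 27.2, 18.1 and 18.7 CPM in controls and 22.9, 20.7, 25.2, 21.3 and 23.2 CPM in irradiated samples. It was higher in 4 of 5 pairs and not called (log2 change 0.19, SE 0.07, adjusted p = 0.0576, edgeR). The exception was pair 3, and without it EHHADH was called higher (log2 change 0.27, adjusted p = 0.00317). PECR, a reductase of trans-2-enoyl-CoA, was at 22.1, 21.5, 21.4, 23.3 and 22.96 CPM in controls and 25.7, 24.1, 30.7, 25.5 and 23.98 CPM in irradiated samples, higher without overlap (log2 change 0.22, SE 0.07, adjusted p = 0.0369, edgeR). PECR was not called without replicate 1 or 4 (adjusted p = 0.0885 and 0.0686), with upper-quartile or library-size scaling (0.0721 and 0.128) or when the minimum was lowered to 1 count (0.0955), nor without both replicates 1 and 3 (0.115). ACAA1, the peroxisomal thiolase, was at 60.5 to 74.4 CPM in control and 59.7 to 73.7 CPM in irradiated samples (adjusted p = 0.9 in edgeR), and DECR2, the peroxisomal dienoyl-CoA reductase, at 9.005 to 10.6 CPM in control and 8.15 to 11.2 CPM in irradiated samples (adjusted p = 0.772 in edgeR). Neither was called, and other genes cover 24.0% and 30.9% of their transcripts.

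All 3 regulators were lower, in 5 of 5 pairs and without overlap. PPARGC1A, which encodes PGC-1α and lies on chromosome 4 from 23755041 to 23904089, was at 54.8, 43.8, 81.6, 43.2 and 48.98 CPM in control replicates 1 to 5 and at 24.7, 25.6, 20.1, 18.2 and 19.7 CPM in irradiated replicates. Its level was 2.46-fold lower (log2 change -1.30, SE 0.15, adjusted p = 0.000436, edgeR), and the log2 change ran from -1.43 to -1.12 over the alternatives, the latter without replicate 3. PPARA was at 34.8, 31.04, 54.4, 30.8 and 31.9 CPM in controls and 24.3, 24.97, 23.4, 23.4 and 24.4 CPM in irradiated samples (log2 change -0.57, SE 0.13, adjusted p = 0.00828, edgeR). Control replicate 3 was again the highest, and without its pair the log2 change of PPARA was -0.40 (adjusted p = 0.000768). PPARD varied little within groups, from 36.4 ± 0.818 to 30.2 ± 0.678 CPM (SD, n = 5 each; log2 change -0.27, SE 0.04, adjusted p = 0.0011, edgeR).

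The direction was much the same in each pair. Between 25 and 31 of the 36 genes were lower in the irradiated sample of a pair, and the median difference within a pair ran from -0.16 in pair 2 to -0.25 in pair 3 on the log2 scale. Pair 3 had the steepest falls of ACSL1, PPARA, PPARGC1A and ETFDH, and for each of these control replicate 3 held the highest value of the 10 samples. Among irradiated samples, replicate 3 was highest for 18 genes and replicate 2 for 11. Leaving out replicate 3 left 21 genes lower and raised the number higher from 2 to 4, by ECI2 and EHHADH. Without both replicates 1 and 3, an alternative chosen after the data had been seen, 25 genes were lower and 2 higher.

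**Figure D3:**
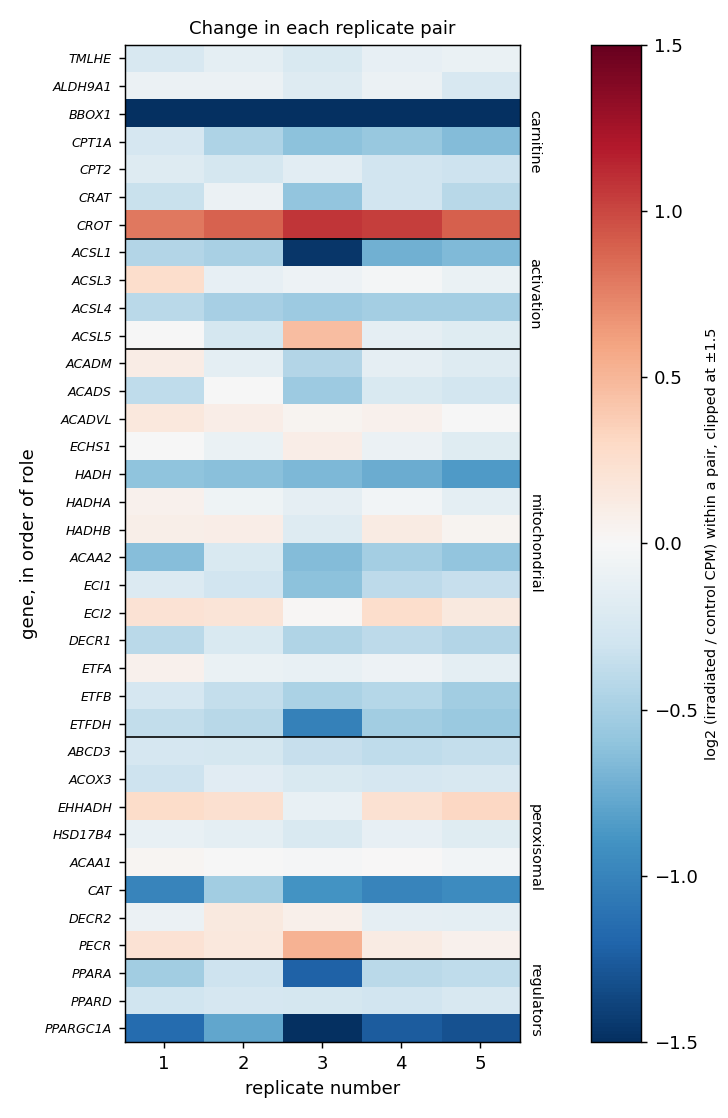
Each cell gives the log2 ratio of CPM in the irradiated over the control sample of 1 replicate pair (x axis, replicate numbers 1 to 5) for 1 of the 36 genes (y axis, in order of role, with lines between compartments), with colours clipped at 1.5 in either direction. BBOX1 is at the lower limit in all pairs, CROT is red in all pairs, and pair 3 is the darkest for ACSL1, ETFDH, PPARA and PPARGC1A.

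Ratios of partner genes within a sample do not depend on scaling between samples, and 8 were compared with an exact two-sided permutation test over the 252 ways to divide 10 samples (n = 5 each), with Benjamini-Hochberg adjustment over the 8. The test cannot give a p-value below 0.00794. ACAA1 to ACAA2, peroxisomal against mitochondrial thiolase, went from a log2 ratio of counts of 0.52 ± 0.09 in controls to 1.04 ± 0.14 after irradiation (SD, n = 5 each; exact permutation adjusted p = 0.0127). CROT to CRAT rose by 1.28, ECI2 to ECI1 by 0.54 and ETFA to ETFB by 0.33, and CPT1A to CPT2 fell by 0.26 (exact permutation adjusted p = 0.0127 for each). The permutation does not use the pairing, and sign flips over the 5 pairs, which cannot give a p-value below 0.0625, left none of the 8 ratios past the threshold (exact adjusted p = 0.0714 for the 7 called here). Each of these 5 ratios moved the same way in 5 of 5 pairs, without overlap between groups. DECR2 to DECR1, the peroxisomal against the mitochondrial reductase, rose by 0.35 (exact permutation adjusted p = 0.0317), and EHHADH to HSD17B4, the L- against the D-bifunctional enzyme, by 0.35 (0.0363 in the same test). These also rose in 5 of 5 pairs, but with groups that overlapped, and each lost its call without 4 of the 5 replicates. HADHA to HADHB, the pair that shares an upstream region, was 0.92 ± 0.08 in controls and 0.83 ± 0.04 after irradiation (SD, n = 5 each), which did not pass (exact permutation adjusted p = 0.0794). In each of the 3 partner sets named as peroxisomal against mitochondrial (ACAA1, DECR2 and CROT as the first gene), the ratio rose, though CRAT is found in both compartments. Of these first genes CROT was called higher, while ACAA1 and DECR2 were not called (log2 changes -0.01 and -0.03). The peroxisomal genes CAT, ABCD3, ACOX3 and HSD17B4 were called lower.

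**Figure D4:**
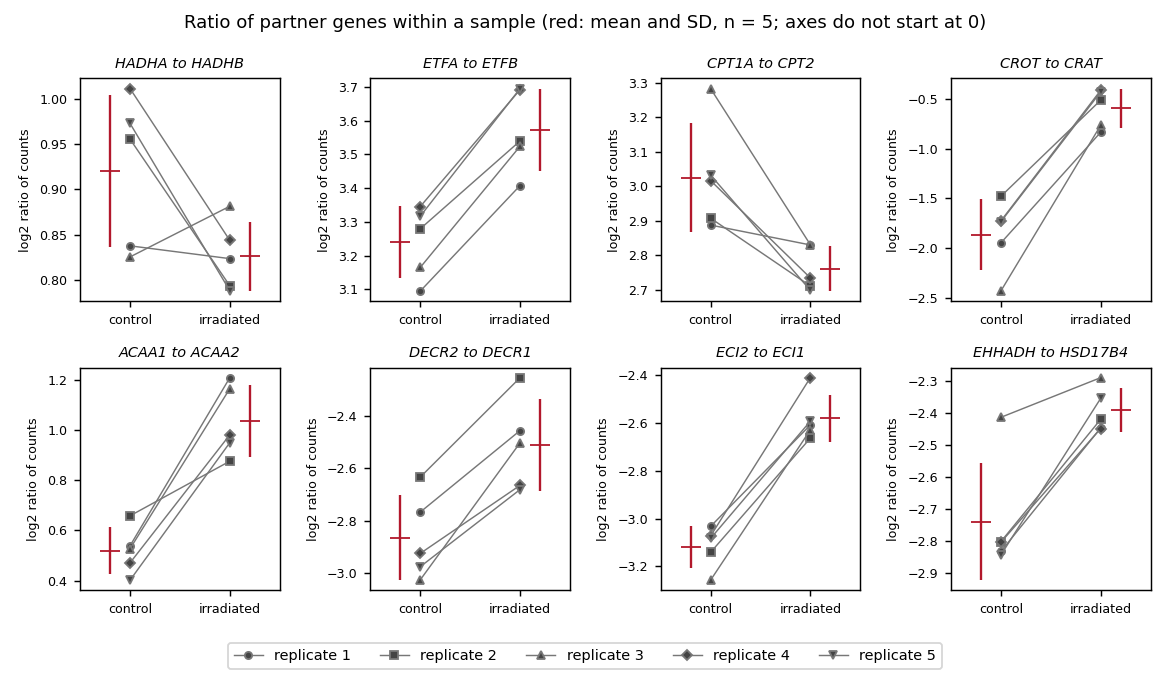
The log2 ratio of the counts of 2 genes within a sample (y axes, which do not start at 0) is plotted for 8 partner sets in control and irradiated samples (x axes), with lines joining replicate pairs and red marks for the mean and SD of 5 samples. CROT to CRAT moves the most, by 1.28, and HADHA to HADHB is the only set whose pairs move in both directions.

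Levels of different genes were compared as CPM per kilobase of the MANE transcript. In controls ACADVL was the highest at 223 CPM per kilobase, followed by ACSL1 (101), ECHS1 (94.4), HADHA (69.5) and CAT (56.5). TMLHE (1.99) and ACSL5 (2.59) were the lowest. BBOX1 ranked 14 of the 36 in controls at 24.9 CPM per kilobase, between ALDH9A1 at 29.5 and TMLHE among the synthesis genes, and was at 2.11 after irradiation, near TMLHE at 1.77. CROT was below CRAT in both groups, at 4.78 against 20.5 in controls and 9.15 against 15.98 in irradiated samples.

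Neighbouring genes of the pathway, in lists drawn up with earlier results of these data known, moved in both directions. For reference, 46.6% of all genes tested were called, 22.7% lower and 23.9% higher. Of 8 further carnitine and malonyl-CoA genes tested, 3 were higher and 2 lower (62.5% called, median log2 fold change 0.05). CPT1C, a brain-type relative of CPT1A, fell from 5.83 ± 1.48 to 2.49 ± 0.846 CPM and ACACB, which makes the malonyl-CoA that restrains CPT1A, from 33.6 ± 4.37 to 18.4 ± 4.15 CPM (SD, n = 5 each; log2 fold changes -1.25 and -0.88). The carnitine transporter SLC22A4 (0.40), the mitochondrial carnitine-acylcarnitine carrier SLC25A20 (0.19) and the muscle isoform CPT1B (0.48) were called higher, the last 2 with calls lost under 10 and 9 of the 14 alternatives. Exons of other genes cover 98.1% of the MANE transcript of CPT1B, so that its 733 counts measure little of it. SLC22A5, the main carnitine importer, was at 45.2 to 55.4 CPM in control and 44.8 to 49.7 CPM in irradiated samples (adjusted p = 0.64 in edgeR). SLC16A9 had 11 counts in all and was not tested.

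Of 18 further genes of mitochondrial acyl-CoA metabolism, 9 were lower and 2 higher (61.1% called, median -0.17). ACSL6 was called lower at -3.34 from a very low level of 0.497 ± 0.305 CPM and with 31.2% of its transcript under other genes, ACSS1, the mitochondrial acetyl-CoA synthetase, at -0.57 (-0.40 without replicate 3, and not called without replicate 1, adjusted p = 0.0592), and ACAT1, the acetoacetyl-CoA thiolase, at -0.52. ACADL, the long-chain dehydrogenase, was low in controls at 1.35 ± 0.104 CPM and rose to 2.84 ± 0.345 CPM (SD, n = 5 each; log2 change 1.07, SE 0.11, adjusted p = 0.000229, edgeR), and IVD, of leucine breakdown, rose by 0.21 on the log2 scale. Of 24 further peroxisomal genes tested, 8 were lower and 3 higher (median -0.05). The 45.8% called is near the 46.6% of all genes tested. PEX11A, of peroxisome division (-0.76), and PEX6, of import receptor recycling (-0.66), were lower, and PEX19 (0.35) and PEX16 (0.19), of membrane assembly, were higher.

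Among genes of fatty acid uptake, storage and release, 6 of 15 tested were higher and 4 lower (66.7% called, median 0.00). Fatty acid binding proteins moved in opposite directions, FABP3 falling from 9.98 ± 5.89 to 2.89 ± 0.384 CPM (log2 change -1.64, SE 0.24, adjusted p = 0.0012, edgeR) and FABP5 rising from 3.32 ± 1.32 to 7.57 ± 2.19 CPM (SD, n = 5 each; log2 change 1.24, SE 0.24, adjusted p = 0.00442, edgeR). Without replicate 3 the log2 change was -1.35 for FABP3 and 1.06 for FABP5, and both were still called. PNPLA3 (0.69) and DGAT2 (0.55) were called higher in 4 of 5 pairs and DGAT1 (-0.29) and LIPE (-0.45) lower in 5 of 5, though the call of DGAT2 was lost under 10 of the 14 alternatives. Among partners and commonly used targets of the PPARs, 2 of 10 tested were higher and 3 lower (median -0.13). ANGPTL4, an inhibitor of lipoprotein lipase, was at 2.08, 1.79, 2.99, 3.08 and 2.17 CPM in controls and 13.2, 5.61, 13.02, 10.9 and 9.62 CPM in irradiated samples and rose without overlap (log2 change 2.08, SE 0.14, adjusted p = 4.84e-05, edgeR), in the opposite direction to PPARA and PPARD. NRIP1, a corepressor of oxidative genes, rose as well (log2 change 0.48, SE 0.07, adjusted p = 0.00117, edgeR), while LPIN1 (-0.27), ESRRA (-0.31) and NCOR1 (-0.14) were lower. For ESRRA, a nuclear receptor partner of PGC-1α, control replicate 3 was the highest control at 133 CPM, the log2 change without its pair was -0.17 (adjusted p = 0.0141), and the call was lost without replicate 1, 2, 4 or 5 and without the replicate block (adjusted p = 0.101). PDK4, which spares glucose when fat is burned, was at 8.66, 7.90, 20.2, 8.98 and 8.12 CPM in controls and 19.6, 13.2, 18.8, 9.76 and 10.6 CPM in irradiated samples and was not called (adjusted p = 0.0623 in edgeR).

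In the citric acid cycle, which takes up the acetyl-CoA that oxidation releases, SUCLG1 (-0.57), FH (-0.53) and SDHD (-0.45) were lower and SDHA (0.53) was higher, with 69.4% of the SDHA transcript under exons of other genes. In the cell cycle list, 17 of 20 genes were lower by the same test (85.0%, against 22.7% of all genes tested), with a median of -1.76. The counts describe RNA on day 7, and protein and the rate of oxidation were not analysed here.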

How the data were processed

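RNA-seq of RPTEC/TERT1 cells was analysed in 5 irradiated and 5 control samples, grouped by their titles. Adapters had been trimmed with Trim-Galore and reads aligned to GRCh38 and counted per gene by STAR, and the authors deposited whole-number counts, neither filtered nor normalised. The GENCODE release is not given in the sources used here, and labels and methods name different library kits. Reads where exons of 2 genes overlap are treated as lost, since 100% of 17 protein-coding genes wholly beneath an opposite-strand gene were at 0 counts, against 10.7% of 12742 lying clear of one. Symbols were matched for 61369 of 61587 rows.

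Counts were fitted in R 4.3.3 with edgeR 4.0.16 (TMM, glmQLFit, glmQLFTest) on genes with at least 200 counts in all, with replicate number as a block as in the study's model. SE is the log2 change over the square root of F. Samples were taken as pairs because their titles and column labels share a number. Deviations from group means correlated at 0.217 to 0.508 across genes for each of the 5 numbers. Between samples of different numbers the correlation was -0.354 to 0.317, so the ranges overlap. No replicate was a repeat of another (chi-square of counts per gene 7.68 to 187). The lowest values came from comparing number 4 with number 5, at 13.1 in controls and 7.68 in irradiated samples. All other comparisons gave at least 47.9 in controls and 35.4 in irradiated samples. Whether numbers 4 and 5 are as independent as the rest was not tested, and the p-values treat them as independent. At these depths the spread between replicates sets the precision, and the fewest counts of any of the 36 genes in a sample was 126. Coordinates and exon overlaps come from GENCODE 44 and promoters from RefSeq GRCh38.p14. Pair differences added 0.01 CPM and ratios 0.5 counts.

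The 36 genes and the lists were chosen with earlier results of these data known. All 36 are named, and of each wider list up to 3 called genes with the largest change in each direction. Others (SLC22A5, PDK4, PAX8, HNF4A, LRP2, SLC12A1, SLC16A9 and markers of other cell types) were picked after their values were seen. Results of some genes of the wider lists are not reported here. Alternatives were DESeq2 1.42.0, voom in limma 3.58.1, other scalings and filters, no block, and pairs left out. The fits and ratio tests were tested on simulated data. Figures used matplotlib 3.10.9.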

Additional observations from a re-analysis of the deposited data

Results flagged for a closer look

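By Dixon's criterion for 5 samples, a value stands apart where its gap to the nearest of the others exceeds 0.71 of the range of its group. This held in 10 of 88 groups of values, where chance gives about 1 in 20 (4.4), and members of a pathway do not vary independently. In 7 of the 10 the sample was control replicate 3.

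Control replicate 3 was high for ACSL1 at 545.2 CPM (other controls 302 to 356), PPARA at 54.4 (30.8 to 34.8), HADHB at 130.9 (98.5 to 105.3), EHHADH at 27.2 (17.6 to 19.0), ETFDH at 23.4 (16.8 to 17.8) and ECI2 at 9.57 (7.71 to 8.16). The log2 ratio of EHHADH to HSD17B4 was -2.41 in this sample and -2.84 to -2.80 in the other controls. Control replicate 1 was high for BBOX1, at 102.4 CPM against 29.1 to 48.7. Irradiated replicate 3 was high for PECR, at 30.7 CPM against 24.0 to 25.7. The log2 ratio of ECI2 to ECI1 was -2.41 in irradiated replicate 4 and -2.66 to -2.59 in the others. What sets these samples apart was not tested.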

How the results depend on the processing

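Of the 23 genes called, 19 were called in the same direction under each of 14 alternatives, and ALDH9A1, ACADS, HSD17B4 and PECR were not. Of the 13 not called, 5 were called under none (ACAA1, ACADVL, ACSL3, DECR2 and HADHB) and the other 8 under 1 to 4. The count of genes lower was 21, 18 without the replicate block, 26 with library size alone and 18 to 21 with a replicate left out. The count higher was 2, but 1 with upper-quartile scaling, with library size alone and with genes of at least 1 count, and 1 to 4 with a replicate left out. Mitochondrial genes lower numbered 7, and 11 with library size alone, where the median of all genes moved to -0.09. Sign flips over the 5 pairs (the replicate block for ratios) cannot go below 0.0625, and under them the differences of 0.33 (ETFA to ETFB), -0.26 (CPT1A to CPT2), 1.28 (CROT to CRAT), 0.52 (ACAA1 to ACAA2), 0.35 (DECR2 to DECR1), 0.54 (ECI2 to ECI1) and 0.35 (EHHADH to HSD17B4) had an exact adjusted p of 0.0714. With a replicate left out, DECR2 to DECR1 ran from 0.31 to 0.38 and EHHADH to HSD17B4 from 0.31 to 0.40, and each lost its call without 4 of the 5 numbers (exact adjusted p from 0.0762 to 0.131), with fewer samples in each test. The DECR2 call held without replicate 2 and that of EHHADH without replicate 3. Outside the 36, calls were lost under 6 alternatives for IVD, 5 for ESRRA, 4 for NCOR1, 3 each for LIPE, PEX16 and PNPLA3 and 1 each for ACSS1 and SLC12A1. SLC16A9, HNF4A and LRP2 had too few counts to be tested, and ACSL6 fell below 200 counts without replicate 1.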
